A study of Mus musculus with 6 samples.

Results

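The genes described here are 6 components of TGF-beta and Wnt signalling, *Tgfbr1*, *Map3k7*, *Bambi*, *Wnt2*, *Wnt16* and *Tspan12*. They were taken by Ensembl identifier from a table of 55359 rows. Each was kept because its row lies on a stretch of chromosome 4, 6 or 18 taken as one where table and GRCm38 positions agree. Their RNA was compared between UN-SCC679 and UN-SCC680, mouse lung squamous cell carcinoma (LUSC) lines of strain A/J, with 3 libraries per line. The lines were derived from lung tumors of different A/J mice whose skin had been painted with the carcinogen N-nitroso-tris-chloroethylurea, and both were grown in Rag2-/- IL2Rg-/- and in A/J mice. The labels name no treatment of the cells. With 1 cell line on each side, the line and its animal and tumor of origin cannot be told apart. Nothing states that the libraries of a line came from separate cultures, so the p-values measure the spread between libraries, which may be technical.

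TGF-beta ligands bind a type II receptor kinase, which switches on the type I receptor TGFBR1 (ALK5). TGFBR1 then phosphorylates Smad proteins, and in a parallel branch the kinase TAK1, the product of *Map3k7*, passes signals of TGF-beta and of inflammatory receptors to stress kinases and NF-kappaB. BAMBI resembles a type I receptor without a kinase domain and dampens the pathway. Wnt proteins such as WNT2 and WNT16 are secreted ligands of Frizzled receptors, and TSPAN12 is a membrane protein that assists the Frizzled-4 receptor in its response to Norrin. In epithelial tumors TGF-beta is known both to restrain growth and to promote epithelial-mesenchymal transition, and Wnt signalling is known to support stem-like growth.

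The libraries held 3568293 to 4363229 counts for UN-SCC679 and 4242716 to 4381885 for UN-SCC680. For most genes the table gives positions that are not those of GRCm38, and their counts were not read as expression. This leaves 1275 rows, of which 1191 meet the position rule. The others have a start or end within 10 bases of GRCm38. Of 30 marker genes of squamous epithelium, fibroblasts, endothelium and leukocytes, 1 (*Col1a2*) lies at a position that could be read, so the squamous identity of the lines was not checked here. These are bulk libraries, so fewer cells with a transcript and less of it per cell cannot be told apart.

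The 6 genes fell into 3 with enough counts to test and 3 near the limit of detection. *Tgfbr1* and *Map3k7* were both higher in UN-SCC680, by 2.15-fold and 1.46-fold. *Bambi* was detected at a low level in both lines, and a difference was not established. *Wnt2*, *Wnt16* and *Tspan12* had 0 to 4 counts in any library. After filtering for low counts 8987 rows were tested by edgeR's quasi-likelihood test, at an adjusted p-value of 5e-05 with no limit on the fold. Of the 3 members tested, 2 passed, both higher in UN-SCC680, and 0 met an added limit of 2 on the absolute log2 fold change. In the background 30.4% of all rows tested passed, 15.3% in the direction of UN-SCC680. Of the 357 tested rows under the position rule, 52.4% passed and 37.5% were higher in UN-SCC680. With so many rows called, 2 calls among 3 members do not set these genes apart.

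**Figure D1:**
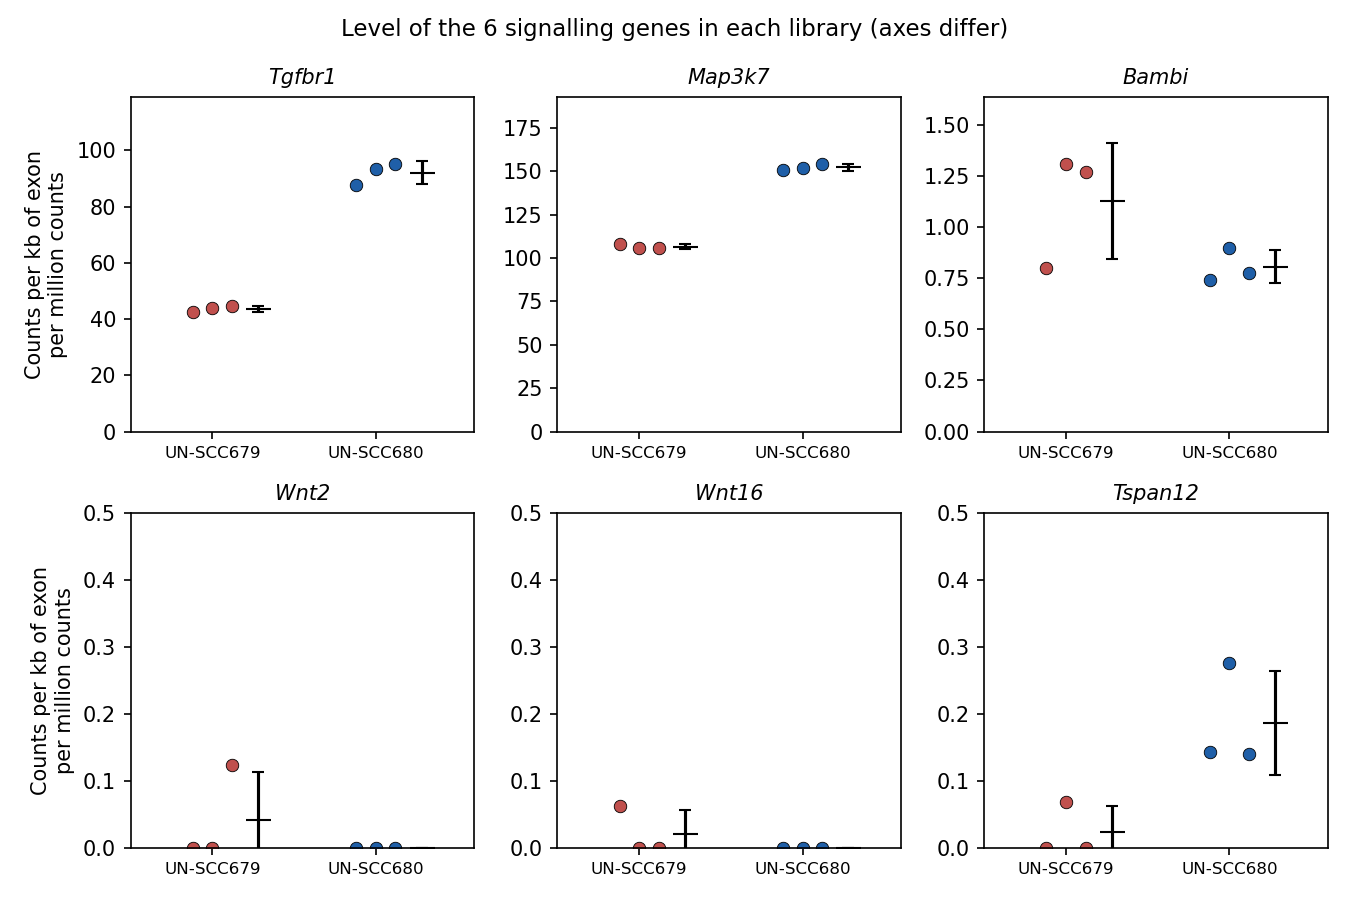
Level of each gene in each library, as CPM (counts scaled to the library total) per kb of exon, with UN-SCC679 in red and UN-SCC680 in blue. Points are libraries, and the black mark with its bar is the mean ± SD (n = 3). The axes differ between panels: *Tgfbr1* and *Map3k7* separate without overlap, *Bambi* overlaps, and the lower row lies under 0.3.

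*Tgfbr1* (ENSMUSG00000007613.16) lies on the + strand of chromosome 4, from 47353222 to 47414931, with 6534 bases of exon. It was counted 1027, 1250 and 1040 times in the libraries of UN-SCC679 and 2428, 2676 and 2689 times in those of UN-SCC680. As CPM per kb of exon, the level was 42.4, 43.8 and 44.6 against 87.6, 93.5 and 95.3. The 3 libraries of UN-SCC680 all lay above those of UN-SCC679, with a gap many times the spread within a line. Normalized CPM averaged 284 ± 7.25 for UN-SCC679 and 611 ± 29.6 for UN-SCC680 (SD, 3 libraries each). The log2 fold change was 1.11 ± 0.042 (standard error), with an adjusted p of 2.71e-26 by edgeR's quasi-likelihood test. Of the 357 tested rows under the position rule, 24 had a larger log2 fold change, 21 of them on chromosome 4. By level the receptor ranked 164th of these rows in UN-SCC679 and 113th in UN-SCC680, where the median row stood at 35.9 and 42.5 CPM per kb.

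*Map3k7* (ENSMUSG00000028284.14, + strand of chromosome 4, 31964097 to 32023467, 6423 bases of exon) was the most abundant per kb of the 6 genes in every library. It was counted 2578, 2957 and 2426 times in the libraries of UN-SCC679 and 4101, 4277 and 4282 times in those of UN-SCC680. The level per kb was 108, 106 and 106 against 150, 152 and 154. The groups did not overlap, and within a line the libraries differed little, with a coefficient of variation of 1.45% in UN-SCC679 and 1.30% in UN-SCC680. The log2 fold change was 0.54 ± 0.034 (standard error), with an adjusted p of 1.76e-18 by edgeR's quasi-likelihood test, and 80 of the 357 rows had a larger one.

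The size of both changes depends on the scaling. The tested rows under the position rule had a median log2 fold change of 0.23 when scaled over all rows, so the rows that can be read as genes tended to be higher in UN-SCC680. With scaling factors taken from those 357 rows alone, the log2 fold changes of all rows tested dropped by 0.24 in the median. On that scale the log2 fold change was 0.87 for *Tgfbr1* and 0.31 for *Map3k7*, both still higher in UN-SCC680. Over the 16 alternatives tried, the adjusted p-value was at most 4.20e-20 for *Tgfbr1* and 2.41e-10 for *Map3k7*.

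A ratio of genes within a library does not depend on scaling. Per kb of exon, *Tgfbr1* stood at 39.2%, 41.6% and 42.1% of *Map3k7* in the libraries of UN-SCC679. In those of UN-SCC680 it stood at 58.2%, 61.5% and 61.7%. The mean ratio was 41.0% ± 1.58 against 60.5% ± 1.98 (SD, n = 3 each). The ratio was higher in all 3 libraries of UN-SCC680, and the exact two-sided permutation test gave p = 0.1, the smallest value 3 against 3 libraries can reach. It was also 0.1 after Benjamini-Hochberg adjustment over the 3 ratios compared.

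The sequence before the start of *Tgfbr1* is shown because this member differed most between the lines. It is RefSeq sequence of GRCm38.p6, the 250 bases before the first exon at chr4:47352972-47353221 (+ strand), where the RefSeq gene and the gene's row have the same start. Capitals mark GC boxes (GGGCGG) and CCAAT boxes (CCAAT) on either strand.
Tgfbr1: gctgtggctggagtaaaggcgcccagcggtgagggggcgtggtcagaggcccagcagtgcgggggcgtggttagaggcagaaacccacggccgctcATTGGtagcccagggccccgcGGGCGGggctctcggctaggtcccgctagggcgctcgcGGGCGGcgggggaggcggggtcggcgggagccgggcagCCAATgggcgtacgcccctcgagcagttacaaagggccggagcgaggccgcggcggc

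Windows of 250 bases before a start were found for 5 of the members, *Bambi* not included, and one of 2 windows was used for *Tgfbr1*, the one nearest the start of its row. The windows lie at the RefSeq start nearest the row, which is not the outermost one for the other members. The RefSeq gene begins at 31963492 for *Map3k7* and 22288178 for *Wnt16* (+ strand) and at 18032772 for *Wnt2* and 21879596 for *Tspan12* (- strand), before the start of the row in each case. The counts below therefore describe 1 of several starts for these 4 genes, and for *Tspan12* one far inside the RefSeq gene. *Tgfbr1* and *Map3k7* were rich in CpG, with 29 and 28 CpG dinucleotides and a GC content of 74.8% and 68.0%. Of all 32851 windows, 93.2% and 92.4% had fewer CpG, and the median was 6. *Wnt2*, at the limit of detection, had 20 CpG, while *Wnt16* had 9 and *Tspan12* had 5. GC boxes occurred in *Tgfbr1* (2), *Map3k7* (2) and *Wnt2* (1), and in 32.7% of all windows. CCAAT boxes occurred in *Tgfbr1* (2), *Wnt2* (1), *Wnt16* (2) and *Tspan12* (1), and in 33.8% of all windows. The windows of *Map3k7*, *Wnt16* and *Wnt2* run past the start of the row, with 240, 249 and 111 bases before it. Those bases hold 1 GC box for *Map3k7* and 0 CCAAT boxes for *Wnt2*. The SMAD box (CAGAC, either strand) matched 1 time, in *Wnt16*, against 42.2% of all windows. The core of TCF and LEF sites (CTTTGA, either strand) matched none of the 5 and is held by 13.8% of all windows. TATAAA on either strand matched 1 time, in *Tspan12*, and is held by 12.4%. In the stretches before the first exon of the rows no match of these 5 motifs overlapped another. These matches describe the letters in these windows only.

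*Bambi* (ENSMUSG00000024232.3, + strand of chromosome 18, 3507923 to 3516404) has 5074 bases of exon and was counted 15, 29 and 23 times in UN-SCC679 and 16, 20 and 17 times in UN-SCC680. Per kb the level was 0.798, 1.31 and 1.27 against 0.743, 0.900 and 0.776. The groups overlapped, since replicate 1 of UN-SCC679 lay within the range of UN-SCC680. The log2 fold change was -0.46 (standard error 0.27, adjusted p = 0.140 from edgeR), with a 95% interval of -0.99 to 0.068 from the standard error, which includes 0. Over the 16 alternatives the adjusted p-value ran from 0.0246 to 0.506. Without replicate 1 of UN-SCC679 the log2 fold change was -0.65 (adjusted p = 0.0510 from edgeR).

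*Bambi* was scarce beside the receptor whose product it resembles. Within a library, *Bambi* per kb was 1.88%, 2.99% and 2.85% of *Tgfbr1* in UN-SCC679 and 0.849%, 0.962% and 0.814% in UN-SCC680. The means were 2.57% ± 0.603 and 0.875% ± 0.0776 (SD, n = 3 each). Relative to *Map3k7* it was 1.06% ± 0.280 and 0.529% ± 0.0543. For both ratios the lines did not overlap, and the exact permutation p was 0.1, the smallest possible, before and after adjustment. The counts of *Bambi* itself overlapped between the lines. Both genes it was divided by were higher in UN-SCC680, so the ratios do not establish a difference in *Bambi*.

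**Figure D2:**
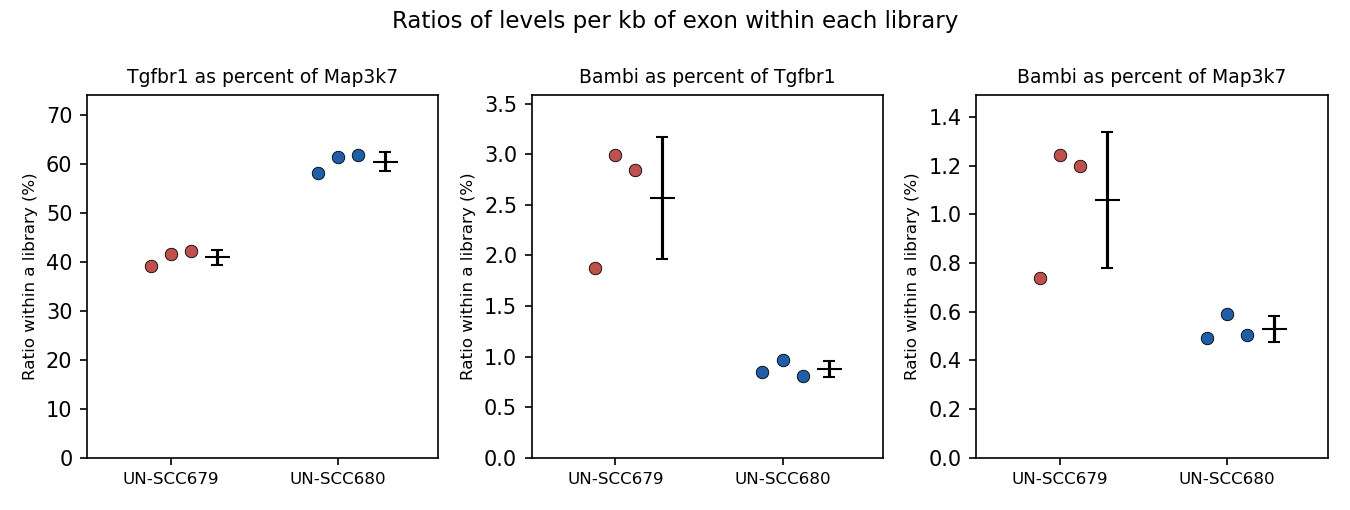
Ratio of levels per kb of exon within each library, in percent, for the 3 pairs of members with enough counts. Points are libraries (UN-SCC679 red, UN-SCC680 blue) and the black mark with its bar is the mean ± SD (n = 3). The mean of *Tgfbr1* against *Map3k7* is 41.0% in UN-SCC679 and 60.5% in UN-SCC680, and both ratios of *Bambi* are lower in UN-SCC680.

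The Wnt ligands were at the limit of detection in both lines. *Wnt2* (ENSMUSG00000010797.7, - strand of chromosome 6, 17988939 to 18030584) was counted 0, 0 and 1 times in the libraries of UN-SCC679 and 0 times in each of UN-SCC680. *Wnt16* (ENSMUSG00000029671.16, + strand of chromosome 6, 22288226 to 22298521) was counted 1, 0 and 0 times in the former and again 0 times in each of the latter. For *Wnt2* neither end of the row lies within 10 bases of the RefSeq gene, which runs from 17985474 to 18032772. Its row was therefore read by the position rule alone. A count of 0 allows up to 3 counts per library, which is 0.685 to 0.841 CPM at these depths, or 0.304 to 0.373 per kb for *Wnt2* and 0.157 to 0.193 per kb for *Wnt16*. These values are upper bounds for a library with 0 counts, and no fold change is given. The upper ends belong to replicate 3 of UN-SCC679, where *Wnt2* had 1 count. For *Wnt2* the highest bound in a library with 0 counts is 0.810 CPM, in replicate 1 of UN-SCC679. Over all 3 libraries of UN-SCC680 together, where both genes had 0 counts, the bound is 0.232 CPM. The limits and the intervals on counts cover counting error only. The other 24 genes of the list of Wnt ligands and their secretion lie at positions that were not read, so these counts say nothing of Wnt production by the lines as a whole.

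*Tspan12* (ENSMUSG00000029669.15, - strand of chromosome 6, 21771394 to 21852514) was counted 0, 1 and 0 times in the libraries of UN-SCC679 and 2, 4 and 2 times in those of UN-SCC680. All 3 libraries of UN-SCC680 were above those of UN-SCC679, at an exact permutation p of 0.1, the smallest possible with 3 against 3 libraries. In all, 8 counts stood against 1, a ratio of 7.19 by library size with an exact 95% counting interval of 0.964 to 319, which includes 1. A difference in *Tspan12* was therefore not established at this depth. The row shares exon bases with 1 row on the other strand, which had 0 counts in total, and the row of *Map3k7* is overlapped in its introns by rows with 1 and 15 counts. The strand setting of the counting is not stated, so reads of overlapping rows cannot be told apart. *Tgfbr1*, *Bambi*, *Wnt2* and *Wnt16* overlap no other row.

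In order of level per kb, *Map3k7* (107 ± 1.55) stood above *Tgfbr1* (43.6 ± 1.11) and *Bambi* (1.13 ± 0.285) in UN-SCC679 (SD, n = 3). *Wnt2*, *Tspan12* and *Wnt16* followed with 1 count each in that line and cannot be ordered. In UN-SCC680 the order was *Map3k7* (152 ± 1.99), *Tgfbr1* (92.1 ± 4.04), *Bambi* (0.806 ± 0.0824) and *Tspan12* (0.186 ± 0.0777), with *Wnt2* and *Wnt16* at 0 counts (SD, n = 3). Neighbors among the first 3 of UN-SCC679 and the first 4 of UN-SCC680 did not overlap.

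The other genes of both pathways were taken from lists of receptors, ligands, modulators, signalling proteins and targets, with 217 genes including the 6 members. Of the other genes, 197 lie at positions that were not read, among them all Smads, the type II receptor and all Frizzled receptors. The 14 that could be read include *Ccny* on chromosome 18 and *Birc2* and *Yap1* on chromosome 9, which lie outside the stretches named above and have a start or end within 10 bases of GRCm38. Of the 13 tested, 5 were higher in UN-SCC680, 5 were lower and 3 did not pass. In the background 30.4% of all rows tested passed, and 52.4% of those under the position rule. The 13 genes had a median log2 fold change of 0.19, against 0.23 for the tested rows under the position rule and -0.0028 for all rows. With scaling from the rows under the position rule, 7 passed and 2 of these were higher.

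**Figure D3:**
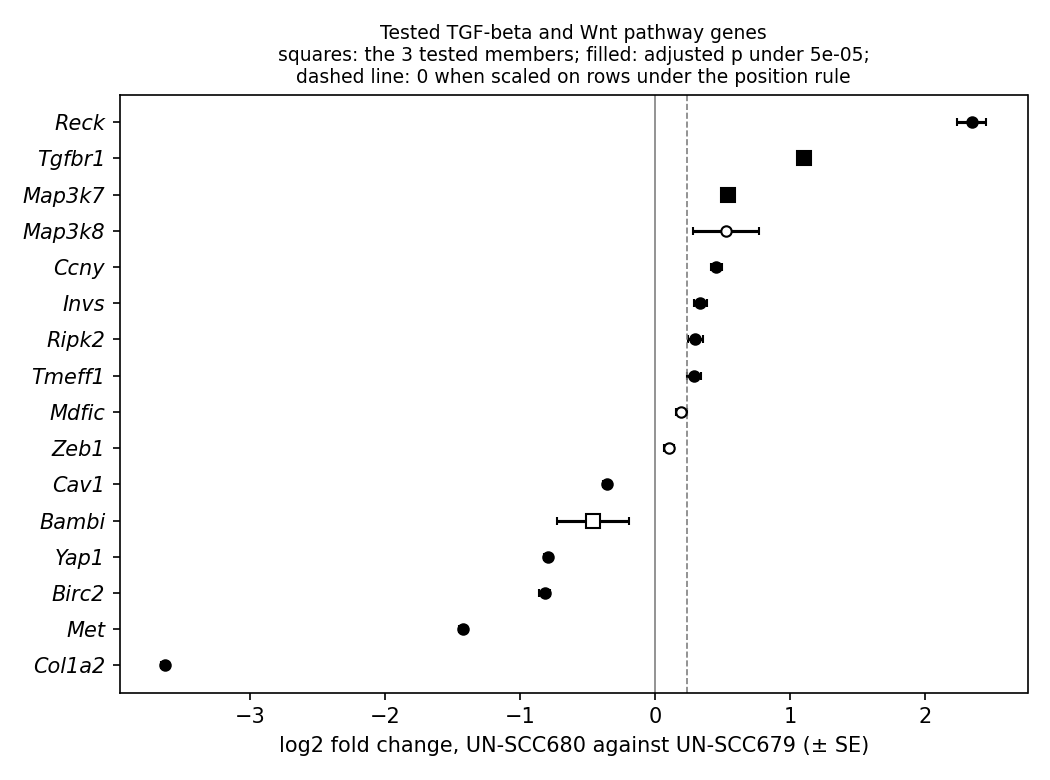
Log2 fold change of UN-SCC680 against UN-SCC679, with its standard error, for the 3 tested members (squares) and the 13 other tested pathway genes (circles). Filled symbols passed an adjusted p-value of 5e-05 in edgeR's quasi-likelihood test, and the dashed line marks where 0 lies when scaling uses the rows under the position rule. *Reck* and *Tgfbr1* are highest, and *Col1a2* is lowest at -3.63.

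Among modulators of TGF-beta signalling, *Tmeff1*, which codes for a transmembrane inhibitor of Nodal, was higher in UN-SCC680 (log2 fold change 0.29, adjusted p = 2.47e-06 from edgeR). *Cav1*, the main protein of caveolae, through which TGF-beta receptors are taken up, was lower by a log2 fold change of -0.36. The BMP-type ligand *Gdf6* was counted 2 times in UN-SCC679 and 0 times in UN-SCC680 and was not tested. Of genes that act with TAK1, *Ripk2*, a kinase that recruits TAK1 downstream of NOD receptors, was higher (0.30, adjusted p = 1.58e-05 from edgeR) and *Birc2*, a ubiquitin ligase of the same complexes, was lower (-0.82). *Map3k8*, another kinase of the MAP3K family, was counted 59 times in UN-SCC679 and 93 times in UN-SCC680 and had a log2 fold change that did not pass (0.53, standard error 0.24, adjusted p = 0.0616 from edgeR).

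The calls of *Ripk2* and *Tmeff1* were the least firm. That of *Ripk2* did not pass without replicate 2 or 3 of UN-SCC679 or without replicate 2 or 3 of UN-SCC680 (adjusted p = 0.000277, 7.68e-05, 0.000531 and 0.000130 from edgeR), nor with library sizes alone (7.96e-05) or with DESeq2 (0.000438). Over its 16 alternatives the adjusted p ran from 1.08e-07 to 0.355. That of *Tmeff1* did not pass without replicate 2 of UN-SCC679 or replicate 3 of UN-SCC680 (adjusted p = 7.20e-05 and 8.83e-05 from edgeR), with a range of 2.13e-09 to 0.370. Without these libraries the log2 fold change stayed at 0.27 to 0.30 for *Ripk2* and at 0.26 to 0.29 for *Tmeff1*. With scaling from the rows under the position rule, which gave the highest adjusted p of both, it was 0.062 for *Ripk2* and 0.052 for *Tmeff1*.

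On the Wnt side, *Reck*, which codes for a co-receptor of Wnt7 proteins that also inhibits metalloproteinases, had the largest rise of the list. Its counts were 56, 92 and 46 for UN-SCC679 and 347, 371 and 357 for UN-SCC680, without overlap. The log2 fold change was 2.34 ± 0.11 (standard error), with an adjusted p of 5.62e-23 by edgeR's quasi-likelihood test. Smaller rises were found for *Ccny* (0.45), a cyclin that promotes phosphorylation of the Wnt co-receptor LRP6, and for *Invs* (0.33), which codes for inversin, a switch between branches of Wnt signalling. With scaling from the rows under the position rule the log2 fold change of *Ccny* was 0.22 and still passed. *Invs* did not pass on that scale (log2 fold change 0.097, adjusted p = 0.0811 from edgeR, the highest of its 16 alternatives). *Mdfic*, which codes for a protein that binds axin and LEF1, did not pass (0.19, adjusted p = 7.54e-05 from edgeR, 7.70e-07 to 0.383 over its 16 alternatives), and *Yap1*, the coactivator of the Hippo pathway that also binds the beta-catenin destruction complex, was lower (-0.79).

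Of genes known as targets, *Col1a2*, a collagen gene that TGF-beta induces in many cells, was lower in UN-SCC680 by a log2 fold change of -3.63, from 2268 ± 100 to 180 ± 8.33 per kb (SD, n = 3 each). *Zeb1*, a repressor of epithelial genes, did not pass (log2 fold change 0.10, adjusted p = 0.0214 from edgeR). *Met*, the receptor of hepatocyte growth factor and a reported Wnt target, was lower by a log2 fold change of -1.42, from 548 ± 6.73 to 200 ± 1.88 per kb (SD, n = 3 each). *Col1a2* is also a fibroblast marker, the 1 of 8 that could be read, and the part of other cells in this value was not tested.

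The genes next to the members were compared to see how far the differences extended. The nearest tested row before *Tgfbr1* is *Galnt12*, 230 kb away, whose log2 fold change was 1.98, at an adjusted p of 8.66e-21 by edgeR. The nearest after it is *Gm12430*, 38.7 kb away, at 0.27, which did not pass (adjusted p = 0.0236 from edgeR). Within 1 Mb of its start 16 other rows were tested, of which 6 were higher and 2 lower. Of the 357 tested rows under the position rule, 134 (37.5%) were higher and 53 lower. The 16 rows had a median log2 fold change of 0.094 and a range of -1.12 to 1.98. The log2 fold change of *Tgfbr1* lay above this median. It lay below that of *Galnt12* and of the next tested rows before it, at 1.45 and 1.12.

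Of 5 other rows tested within 1 Mb of the start of *Map3k7*, 2 were higher and none lower, beside the 37.5% of rows under the position rule that were higher, and their median log2 fold change was 0.41. The absence of lower rows depends on this limit, since *Rragd*, named after its value was seen, passed at -3.15 and lies 1.02 Mb from that start. *Bach2*, 215 kb after it, did not pass at 0.45 (adjusted p = 0.000393 from edgeR). The nearest tested row before it, 2997 kb away, is *Epha7*, with 7045 counts summed over the libraries of UN-SCC679 and 18 over those of UN-SCC680. Over the whole stretch of chromosome 4, 109 of 254 tested rows were higher and 29 lower, with a median of 0.29. On chromosome 6 it was 23 higher and 24 lower of 89 (median -0.017), and on chromosome 18 it was 2 higher and 0 lower of 14 (median 0.14). These counts hold with scaling over all rows. With scaling from the rows under the position rule the lean of those rows turned, from 134 higher and 53 lower to 74 higher and 90 lower.

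**Figure D4:**
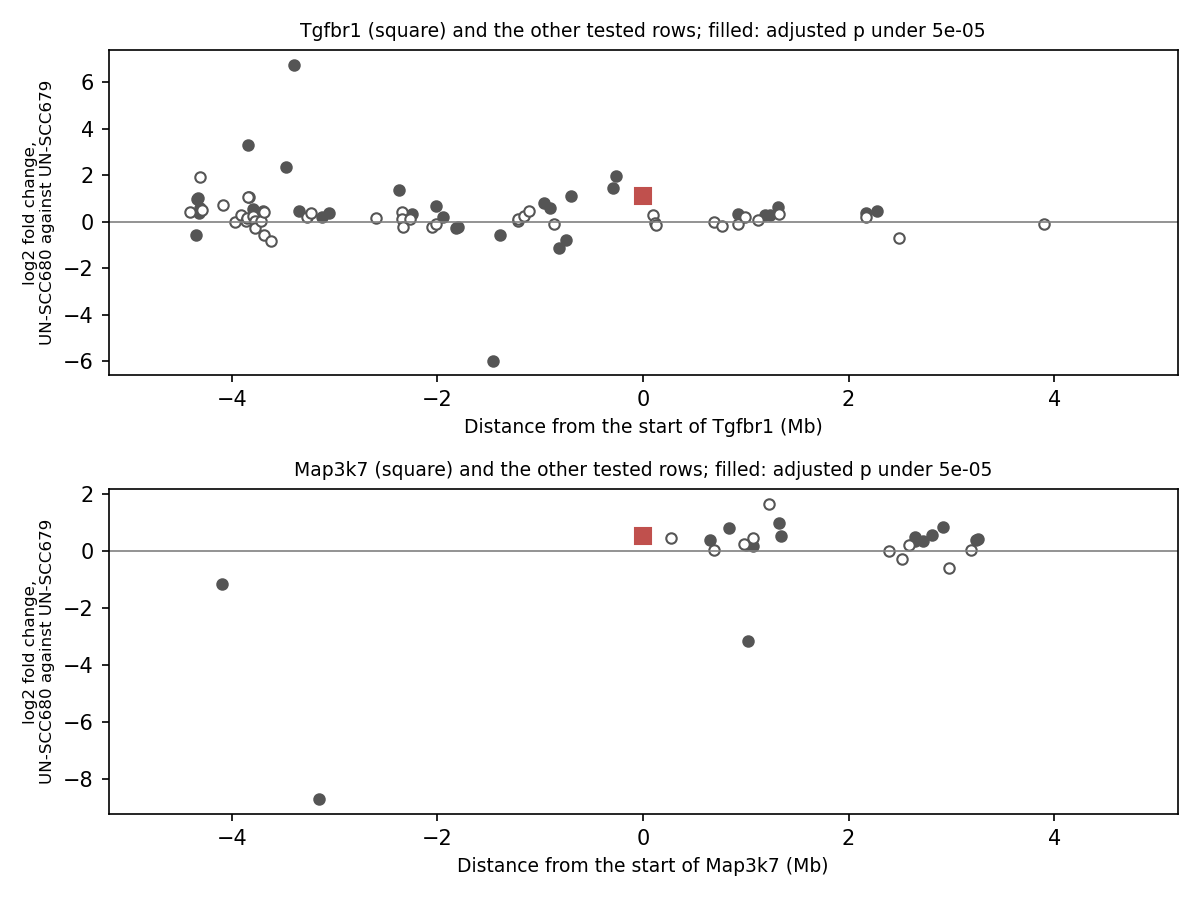
Log2 fold change of UN-SCC680 against UN-SCC679 for tested rows under the position rule, by distance in Mb of their start from that of *Tgfbr1* (upper panel) or *Map3k7* (lower panel), up to 5 Mb each way. Filled circles passed an adjusted p-value of 5e-05 and squares are the named genes. *Tgfbr1* at 1.11 stands above the rows on its right. On its left the rows run from -5.98 to 6.75, and the nearest ones (1.98, 1.45 and 1.12) lie above it. The rows around *Map3k7* (0.54) run from -8.71 to 1.67, with both rows on its left called lower.

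Around the members near the limit of detection, the neighbors named are the nearest rows that passed the filter on low counts. *Fam3c*, the nearest tested row after *Wnt16*, was counted 2652 times in UN-SCC679 and 4242 times in UN-SCC680 (log2 fold change 0.55, adjusted p = 9.20e-14 from edgeR). *Ing3*, which lies between *Tspan12* and *Wnt16*, had 1361 and 1512 counts in these lines and did not pass (0.028, adjusted p = 0.727 from edgeR). *St7*, 45.9 kb before *Wnt2* by position, had 1978 and 1751 counts and was lower (-0.30, adjusted p = 9.20e-06 from edgeR), and *Gm15593*, 114 kb after it, was higher (0.56). Within 1 Mb of the start of *Wnt2*, 3 of 16 tested rows were higher and 7 lower, beside 23 higher and 24 lower of 89 on the stretch of chromosome 6. Neighbors with low counts could not appear here, so these values do not show how far the low counts of *Wnt2*, *Wnt16* and *Tspan12* were shared. Only 3 other rows were tested within 1 Mb of the start of *Wnt16*, and 3 for *Tspan12*. The nearest tested row before *Tspan12* by position lies 2452 kb away. Around *Bambi*, *Cul2* had 5029 and 5454 counts and did not pass (-0.0086, adjusted p = 0.870 from edgeR), and none of 8 rows tested within 1 Mb passed. On the stretch of chromosome 18, 2 of 14 tested rows were higher and 0 lower, and 52.4% of all tested rows under the position rule passed.

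The rows most like a member were those with the smallest root mean square difference of centered log2 CPM over the 6 libraries, among 324 named rows under the position rule. For *Tgfbr1* they were *Pnrc1* (difference 0.060) and *Ctnnal1* (0.070). For *Map3k7* they were *Sdcbp* (0.0054, log2 fold change 0.54) and *Nfx1* (0.024, log2 fold change 0.50). For *Bambi* they were *Shb* (0.17, log2 fold change -0.29) and *AI464131* (0.18, log2 fold change -0.26). All 6 lie on chromosome 4, which holds 254 of the 357 tested rows. The 6 libraries come from 2 lines, so the measure mostly reads the difference between the lines.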

How the data were processed

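For each of 6 libraries the authors deposited unnormalized counts by Ensembl gene, beside exon positions and length. The submitters' processing notes name featureCounts and mm10, whereas Kallisto, after trimming by Trimmomatic, and DESeq2 are the tools in the study's methods. The strand setting of the counting is not given in the sources used here. Columns were matched to libraries by line and replicate number, with 0 columns of values left unused. Symbols matched 31021 of 55359 identifiers. A row was read as a gene if its lowest start lay under 58.6 Mb on chromosome 4, 29.5 Mb on chromosome 6 or 5.8 Mb on chromosome 18, or if its start or end lay within 10 bases of RefSeq GRCm38.p6. Of 571 rows under that rule found in RefSeq, 385 had a start or end within 10 bases.

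Counts were filtered with filterByExpr, scaled by TMM over all rows and tested by the quasi-likelihood method of edgeR without covariates, with p-values adjusted over 8987 rows after Benjamini and Hochberg. The standard error was derived from the F statistic. Levels per kb used library totals and the exon length of the table. The code was tested on simulated data. Libraries of a line differed by more than sampling noise (chi-square per degree of freedom 1.11 to 1.65). Each was counted as 1 sample, although this spread does not show that they came from separate cultures. The members and lists were chosen with earlier results of these data known. The genes named were the members, listed genes that could be read, the nearest tested rows, rows overlapping a member and the 2 rows most like each tested member. The threshold on adjusted p is that of the study, which added a fold limit and compared each line with normal cells. Alternatives were other scalings, filters and thresholds, DESeq2, limma-voom, the replicate block and leaving out each library. Python 3.11.15 was used with matplotlib 3.10.9, NumPy 2.4.6, pandas 2.3.3 and SciPy 1.17.1, and R 4.3.3 with DESeq2 1.42.0, limma 3.58.1 and edgeR 4.0.16.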

Additional observations from a re-analysis of the deposited data

How the results depend on the processing

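The log2 fold changes of *Tgfbr1*, *Map3k7* and *Bambi* changed neither sign nor side of the threshold under any of the 16 alternatives run for each, with ranges of 0.87 to 1.15, 0.31 to 0.57 and -0.70 to -0.33. The filter on low counts removed *Wnt2*, *Wnt16* and *Tspan12* from the main fit, and no log2 fold change of them is given. Without that filter all 6 members were tested, and only *Tgfbr1* and *Map3k7* passed. DESeq2 tested 4 members, and the same 2 passed. The count of 2 members that differed held in 17 of 19 alternatives, and became 1 when an absolute log2 fold change above 1 was also required and 0 when it was above 2. The 10 pathway genes became 3 and 2 under these limits, and the 2736 rows became 1024 and 435, while an adjusted p-value under 0.05 gave 5248 rows. These follow from stricter or looser criteria on the same rows. With scaling from the rows under the position rule, the share of calls higher in UN-SCC680 fell from 50.1% to 25.5% of all rows and from 71.7% to 45.1% of rows under the rule, and *Mdfic* and *Zeb1*, which had not passed, changed sign (to -0.042 and -0.14). These changes follow from the shift of this scaling, -0.24 in the median over all rows tested. Why rows under the position rule tended to be higher in UN-SCC680 with scaling over all rows was not tested. The replicate block gave 2 members, 10 pathway genes and 2523 rows. Deviations of libraries with the same number correlated at -0.038, -0.00052 and -0.022, and 0 of 6 libraries correlated best with their own number, so the numbers do not pair them. Counts limit *Bambi*, with 53 to 67 counts per line, and more so the members with fewer.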
